A study of Mus musculus with 2 samples.

Results

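The clustered protocadherin genes, Pcdha, Pcdhb and Pcdhg, were described in DNase-seq of mouse hippocampus. They were taken as every protein-coding gene of the GENCODE M21 annotation whose symbol starts with Pcdha, Pcdhb or Pcdhg, which gave 57 of 21938 protein-coding genes. There were 14 Pcdha, 22 Pcdhb and 21 Pcdhg genes. All lie on the plus strand of chromosome 18 and together span 912 kb (mm10, chr18:36930184-37841873). The intervals between them and 200 kb on either side were included. The symbol Pcdha11 belongs to 2 genes in this annotation, and the one with the identifier ENSMUSG00000007440.10 is given with it. Pcdhgb8, annotated as a polymorphic pseudogene, was not a member.

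DNase-seq maps chromatin that the nuclease DNase I can cut. All data form 1 group of 2 libraries, labelled biological replicates 1 and 2: hippocampal tissue, labelled as a layer of hippocampus with the layer not named, of female B6CASTF1/J mice at 25 days. This strain is a first-generation hybrid of a laboratory and a wild-derived strain. Both libraries carry the same donor entry, so whether they came from separate animals is not known, and their spread may be technical. With 1 group there was no condition to compare, and everything that follows is a description of these libraries. Depth is unknown, since the files used here hold no read counts.

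Clustered protocadherins are adhesion proteins of the cadherin superfamily that neurons use to tell their own branches from those of other cells. In Pcdha and Pcdhg, each variable first exon has its own promoter and is spliced to constant exons shared by the subcluster, while each Pcdhb gene holds its coding sequence in a single exon. Single neurons typically express a few of the alternate isoforms, chosen largely at random through CTCF and cohesin looping between promoters and distant enhancers. The C-type genes at the ends of Pcdha and Pcdhg are instead expressed more uniformly. In bulk tissue, fewer cells with an open promoter and less access per cell cannot be told apart.

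A promoter was 500 bp either side of the outermost annotated start. It was called open when a peak of the stricter of the deposited peak lists, the one with fewer peaks, overlapped it in both libraries. Signal is the deposited strength of the strongest such peak. Its scaling is not stated and differs between libraries, so each value is also given as a rank, its percentile among protein-coding genes with a promoter peak in that library. Replicate 1 had 61466 strict peaks and replicate 2 had 50379. Among markers of cell types, 4 of 5 pan-neuronal and 3 of 4 excitatory promoters were open in both libraries. None of 4 interneuron, 4 astrocyte, 4 oligodendrocyte, 3 microglial, 3 vascular and 3 foreign-tissue marker promoters was, although Slc1a2, Mbp and Flt1 had a peak in replicate 1.

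Of the 57 members, 4 were open in both libraries, Pcdhac1, Pcdhac2, Pcdhga11 and Pcdhgc3. That is 7.02% of members, against 48.8% of all protein-coding genes. A further 16 members, or 28.1%, had a strict peak in replicate 1 only, against 6.04% of all protein-coding genes. Only Pcdhgc5 had one in replicate 2 only, and 36 members had none in either library. Counted by library, 20 members (35.1%) had a strict peak in replicate 1, against 54.8% of all genes, and 5 members (8.77%) in replicate 2, against 49.4% of all genes. Of the 16 members with a peak in replicate 1 only, 13 were Pcdhb genes.

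**Figure D1:**
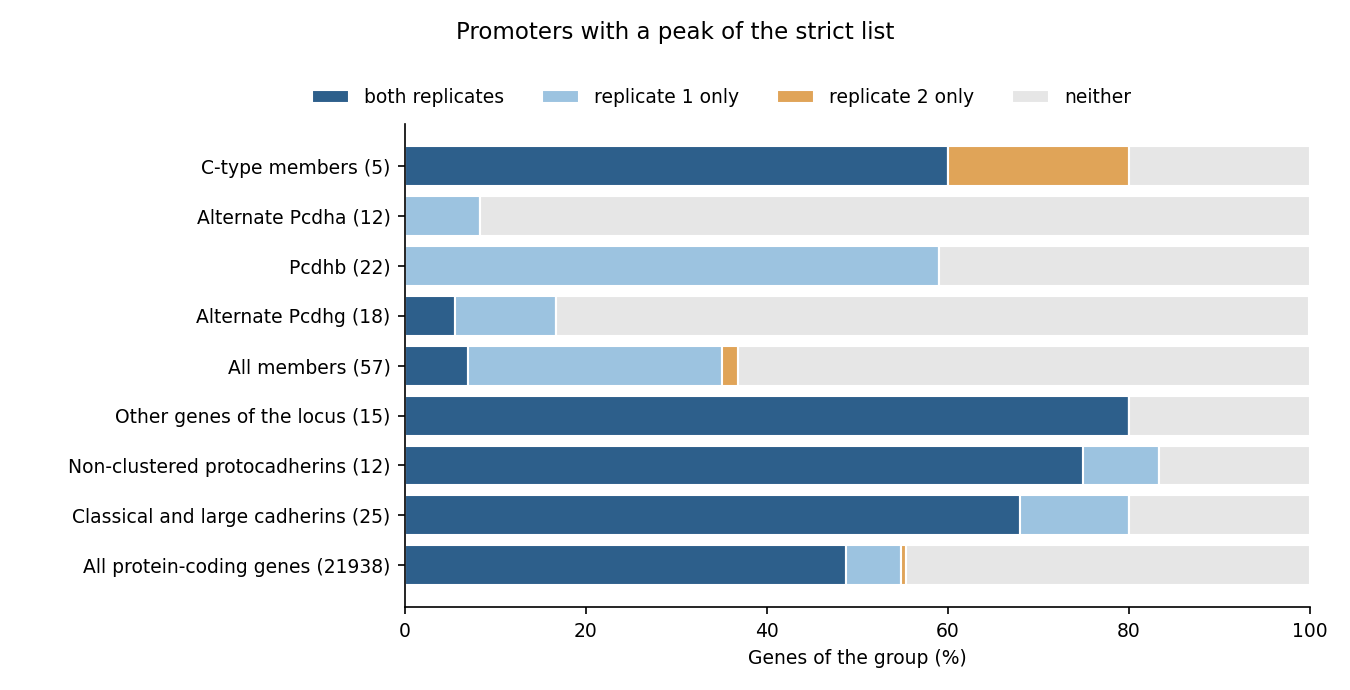
Percentage of genes whose promoter had a strict peak in both replicates, in replicate 1 only, in replicate 2 only or in neither, with the number of genes of each group in parentheses. Members open in both replicates made up 7.02% of all 57, against 48.8% of all protein-coding genes, and 13 of 22 Pcdhb genes had a peak in replicate 1 only.

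C-type genes made up 3 of the 4 members open in both libraries. Of the 5 C-type genes, 3 were open in both libraries, and all 5 had peaks in both libraries on the longer peak lists. Pcdhac1 had a signal of 4.93 in replicate 1 and 1.52 in replicate 2, ranks of 63.9% and 38.8%. Its peaks, chr18:37089861-37090040 and chr18:37089901-37090140, covered the annotated start. Pcdhgc3, whose protein acts in dendrite growth and binds Axin1, had 3.75 in replicate 1 and 2.22 in replicate 2, ranks of 47.9% and 65.7%. Its peaks, chr18:37806221-37806480 and chr18:37806201-37806480, also lay over the start.

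Pcdhac2, needed in serotonergic neurons for the spacing of their axons, had weaker signals of 1.38 in replicate 1 and 0.908 in replicate 2, ranks of 14.9% and 16.5%. The strict peaks of the libraries there, chr18:37143721-37143780 and chr18:37143576-37143675, did not overlap each other, although the peaks of the longer lists did. Both lay downstream of the start, centred 247.5 bp and 122.5 bp from it. Pcdhgc5, whose protein binds GABA-A receptors, had a strict peak in replicate 2 only, with a signal of 1.23 and a rank of 28.0%, centred at -175.5 bp from the start (negative is upstream). On the longer list replicate 1 also had a signal of 1.23 there. Pcdhgc4, required for the survival of many interneurons, had no strict peak, and on the longer lists 1.11 in replicate 1 and 0.833 in replicate 2.

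Among the 12 alternate Pcdha genes, none was open in both libraries. Pcdha5 alone had a strict peak, in replicate 1, with a signal of 0.802 and a rank of 4.5%. That peak was centred 457.5 bp downstream of the annotated start, unlike the upstream peaks of most other members. The annotated start of Pcdha5 coincides with its start codon, whereas the median distance was 107.5 bp over the alternate Pcdha genes. The peak therefore lay downstream of the start codon, although it counts here as a promoter peak. On the longer lists 6 of the 12 had a peak in replicate 1, with signals of 0.368 to 0.802. Only Pcdha12 had one in replicate 2, at 0.353, and none of the 12 had one in both.

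The alternate Pcdha promoters were also the least distinct in sequence. To gauge where short reads could be placed, the share of 36-base words of each promoter found once in the chromosomes was computed; the read length is not given in the sources used here. It was 72.6% to 92.5% in the alternate Pcdha genes. The median was 99.0% over all members and 100% over all protein-coding genes. A share under 90% was found in 33.3% of members, against 16.5% of all protein-coding genes. Pcdhgb4, at 73.0%, was the lowest of the Pcdhg genes. The part of placement in the missing peaks was not tested.

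Among the 22 Pcdhb genes the libraries differed. A strict peak was present at 13 of them in replicate 1 and at none in replicate 2. The 13 were Pcdhb2 to Pcdhb7 and Pcdhb10 to Pcdhb16, a pair of unbroken runs of genes on the strict list. In the first run, the replicate 1 signal was 0.750 at Pcdhb2, 0.919 at Pcdhb3, 0.728 at Pcdhb4, 0.566 at Pcdhb5, 0.750 at Pcdhb6 and 1.00 at Pcdhb7. In the second run, it was 1.38 at Pcdhb10, 0.478 at Pcdhb11, 0.662 at Pcdhb12, 0.353 at Pcdhb13, 0.904 at Pcdhb14, 0.426 at Pcdhb15 and 0.699 at Pcdhb16. Pcdhb10 was thus the highest and Pcdhb13 the lowest. Pcdhb1, Pcdhb8, Pcdhb9 and Pcdhb17 to Pcdhb22 had no strict peak in either library. On the longer list of replicate 1, Pcdhb8 had 0.287 and Pcdhb9 had 0.353, so the gap between the runs was filled there. Pcdhb17 had 0.441 and Pcdhb18 had 0.412 on that list, and only Pcdhb19 to Pcdhb21 had no peak.

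These were weak peaks. Their median signal was 0.728, against 3.88 over the 12022 protein-coding genes with a promoter peak in replicate 1, and no Pcdhb gene ranked above 14.9%. In position they were alike: each was centred at -152.5 to -19.5 bp from its start, with a median of -40 bp, and was 73 to 180 bp wide. On the longer lists 19 of 22 had a peak in replicate 1 and 5 in replicate 2. These 5 were Pcdhb4, Pcdhb7, Pcdhb11, Pcdhb14 and Pcdhb22, with replicate 2 signals of 0.225 to 0.315. Among the 1782 other genes whose replicate 1 signal lay in the Pcdhb range, 47.4% had a strict peak and 79.1% a longer-list peak in replicate 2. Of the 13 Pcdhb genes none had the strict peak and 4 had the longer-list peak. Strength within the range was not matched: many of the 1782 genes had a replicate 1 signal above 1.00, which only Pcdhb7 and Pcdhb10 reached among Pcdhb. This range was chosen after the values were seen and no test was made.

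**Figure D2:**
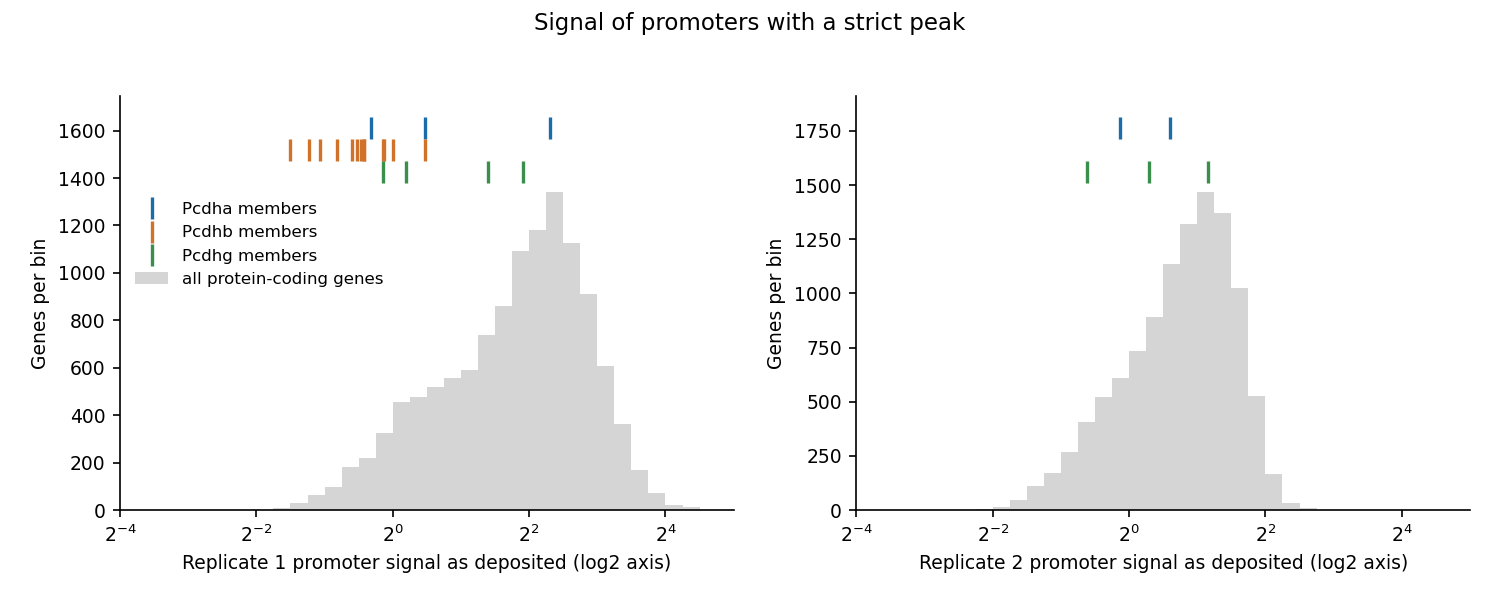
Number of protein-coding genes by deposited promoter signal (strict peaks, log2 axis) in each replicate, with a coloured mark for each member that had a peak. The 13 Pcdhb marks lie between 0.353 and 1.38 in replicate 1, below the median of 3.88, and there are none in replicate 2.

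Of the 18 alternate Pcdhg genes, 1 was open in both libraries. Pcdhga11 had 2.64 in replicate 1 and 0.653 in replicate 2, ranks of 33.1% and 7.52%, with peaks centred at -50.5 bp and -44 bp. In replicate 1 only, Pcdhga3 had 0.904 at -39 bp, and Pcdhga12 had 1.14 at 333 bp downstream. The annotated start of Pcdhga12 lies 537 bp before its start codon, against a median of 184.5 bp over the 18 genes. The remaining 15 had no strict peak. On the longer lists, Pcdhga7 had 0.456 and 0.225 and Pcdhga12 had 1.14 and 0.510 in replicates 1 and 2. The Pcdhga and Pcdhgb genes alternate along the chromosome. None of the 6 Pcdhgb genes had a strict peak, while 4 of them had a longer-list peak in replicate 1, with signals of 0.522 to 0.779. The neighbouring pseudogene Pcdhgb8 had overlapping peaks in both libraries, 1.76 in replicate 1 and 0.600 in replicate 2, centred at -135.5 bp and -142 bp from its start.

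On the longer lists as a whole, 13 members (22.8%) had a peak in both libraries, against 54.1% of all protein-coding genes. In replicate 1 the share was 68.4% (39 members), against 59.4% of all genes, and in replicate 2 it was 24.6% (14 members), against 54.8% of all genes. By subcluster, the replicate 1 share was 86.4% in Pcdhb and 57.1% each in Pcdha and Pcdhg. Only Pcdhb thus lay above all genes on that list, and the difference was not tested. Both lists of replicate 2 placed the members below all genes. In 17 members neither library had a peak on either list.

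Footprints, short stretches protected from cutting within accessible DNA, are deposited as a separate list per library. At least 1 footprint lay in the promoters of 36 members (63.2%) in replicate 1, against 57.4% of all protein-coding genes, and of 6 members (10.5%) in replicate 2, against 51.5% of all. A footprint shared by both libraries, overlapping by 50% or more of the shorter one, lay at 3 members, against 43.6% of all protein-coding genes. These were Pcdhac1 with 3, Pcdhga11 with 2 and Pcdhgc3 with 2 shared footprints. Of 95 footprints in replicate 1, 67 lay within 150 bp upstream of the start, and of 21 in replicate 2, 8 did. Only 53 of the 95 and 13 of the 21 overlapped a strict peak of the same library. A footprint in a promoter therefore does not mean that the promoter had a strict peak. Pcdhb promoters held 41 footprints in replicate 1, of which 32 lay within those 150 bp and 0 in replicate 2. The median place of the 41 was -56.5 bp from the start.

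**Figure D3:**
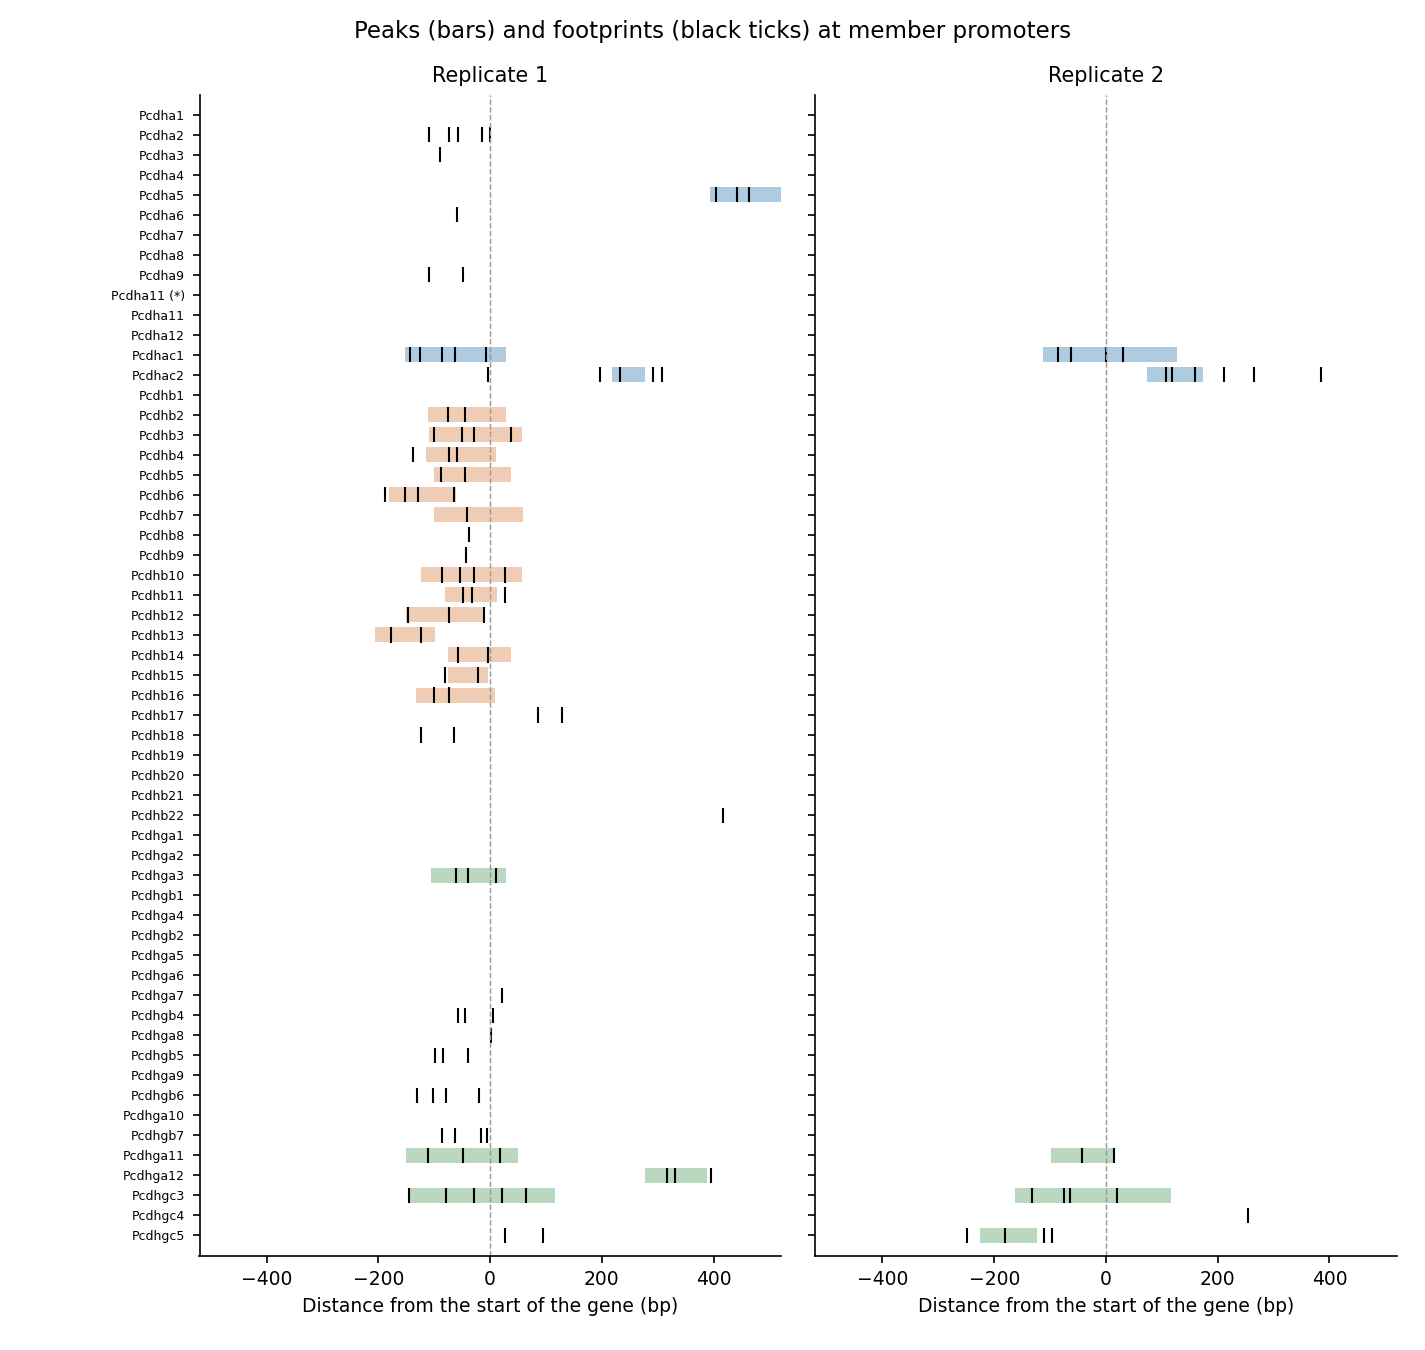
Strongest strict peak (bars, coloured by subcluster) and footprint centres (black ticks) at each member promoter, in bp from the annotated start, with members in genome order and the replicates side by side. Pcdha11 (*) is the gene ENSMUSG00000007440.10. Peaks and ticks of Pcdhb crowd the 150 bp upstream of the start in replicate 1, where 32 of 41 footprints lie, and are missing in replicate 2.

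Most variable protocadherin promoters share a conserved element with the core CGCT, and CTCF binds at many of them. Sequence of this chromosome is not printed here, so motifs are given as counts. Both strands were searched in every promoter. The core CGCT occurred in 57 of 57 members, against 85.9% of all protein-coding promoters. Copies per member ranged from 1 at Pcdhb9 to 17 at Pcdhgc3. So short a word is common in windows of this size, and its presence does not show the conserved element. The longer word GGCGCT, which contains that core, occurred in 20 of 22 Pcdhb (90.9%), 12 of 21 Pcdhg (57.1%) and 3 of 14 Pcdha promoters (21.4%), against 41.4% of all. Among Pcdhb, only Pcdhb1 and Pcdhb13 lacked it.

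Pcdhb promoters held 25 copies of the word, of which 23 read in the direction of the gene; these and the next counts were made after the values were seen and were not tested. In the 200 bp upstream of the start, 18 of 22 Pcdhb genes (81.8%) held it, against 13.3% of all protein-coding genes. Each of the 18 held exactly 1 copy, and these 18 copies all read in the direction of the gene. Footprints, widened by 8 bp at each end, covered the word in 17 Pcdhb promoters in replicate 1, at places from -130 bp to 408 bp from the start with a median of -49 bp. At Pcdhb8, Pcdhb9, Pcdhb17, Pcdhb18 and Pcdhb22 the covering footprint lay outside strict peaks. Pcdhb17 and Pcdhb22 were the Pcdhb genes with the covered copy downstream of the annotated start. Their annotated starts lie 364 bp and 610 bp before the start codon, against a median of 179.5 bp over Pcdhb. Places counted from the annotated start are therefore not alike between these genes and the rest. As a share of footprints, with the same widening, 17 of 41 in Pcdhb held the word in replicate 1. So did 22.1% of all member footprints, against 4.56% of footprints at all protein-coding promoters in replicate 1. With the widening, a counted word can lie beside the footprint itself, as at Pcdhb8. The same copy can also count in more than 1 footprint, as at Pcdhga12. In replicate 2 the shares were 14.3% of the 21 member footprints and 4.19% of all, and Pcdhb had no footprint there. A match is a description and not evidence of a bound factor.

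Other motifs separated the subclusters. A 12-base CTCF core occurred in 12 of 14 Pcdha, 2 of 22 Pcdhb and 8 of 21 Pcdhg promoters, against 25.0% of all. With footprints widened in the same way, it lay in those of only Pcdhac1 and Pcdha5 in replicate 1. At Pcdhac1 the footprint at -62 bp, found in both libraries, held both this core and GGCGCT. At Pcdha5 the footprint that held the core lay 463.5 bp downstream, inside the single strict peak of the alternate Pcdha genes. The shorter word AGNNGGC, part of that core, occurred in 84.2% of members, against 91.6% of all. The GC box GGGCGG was present in 13 of 14 Pcdha, in 0 of 22 Pcdhb and in 7 of 21 Pcdhg promoters, against 60.4% of all. The TATA word TATAAA occurred in 52.6% of members, against 32.3% of all. GGACAGC, a part of the element bound by the repressor REST, occurred in 12.3% of members, against 23.6% of all.

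The CpG observed to expected ratio of the promoter, also differed by subcluster. Its median was 0.682 in Pcdha, 0.378 in Pcdhb and 0.594 in Pcdhg, and 0.564 over all members, against 0.552 over all protein-coding genes. C and G made up 44.9% of member promoters at the median, against 54.7% of all. All protein-coding genes were ranked by this ratio in 10 equal groups, from group 1 with the lowest ratio, where 0.775% were open in both libraries, to group 10 with the highest, where 91.1% were. The 29 members in groups 6 to 9 included all 14 Pcdha genes, and 4 of the 29 were open in both libraries, where 69.6% to 89.3% of all genes of those groups were. All 22 Pcdhb genes fell in groups 1 to 5. In group 4, with 7 Pcdhb genes and 1 Pcdhg gene, 6 of 8 had a strict peak in replicate 1, against 24% of all genes of that group. In group 5, with 10 Pcdhb genes and 4 Pcdhg genes, 7 of 14 had one in replicate 1, against 61.3% of all genes of that group. These groups hold few members, the gap in group 5 is small, and neither was tested. In group 3, 1 of 5 members had a strict peak in each replicate, against 6.65% of all genes in replicate 1 and 4.74% in replicate 2. In replicate 2 none of the 8 in group 4 had a strict peak, against 17.5% of all, and none of the 14 in group 5, against 48.5%.

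**Figure D4:**
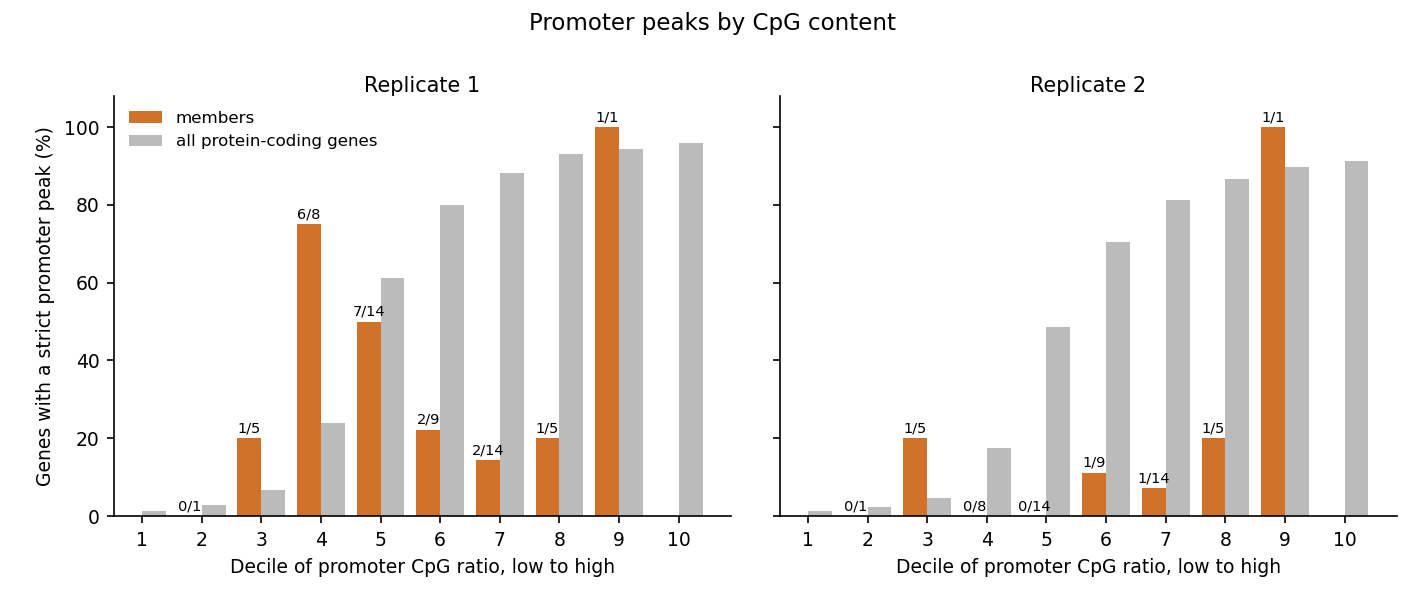
Percentage of genes with a strict promoter peak by group of promoter CpG ratio (deciles), for members (orange, with counts) and all protein-coding genes (grey), in each replicate. In groups 6 to 8 members lie below all genes in both replicates, while in replicate 1 they lie above all genes in group 4 (6 of 8) and below them in group 5 (7 of 14), and in replicate 2 both these groups hold 0 members with a peak. Groups hold few members and no test was made.

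Outside the promoters of protein-coding and long noncoding RNA (lncRNA) genes, 13 regions of the locus were open in both libraries. Each lay more than 500 bp from every start of such genes, while starts of other gene types, such as pseudogenes, were not left out. The 13 regions came to 9.91 per Mb, against 8.03 per Mb over the genome. They were unevenly placed. Within the Pcdha, the Pcdhb and the Pcdhg subcluster there were 0, 0 and 1, and between Pcdhb and Pcdhg there was none. The 1 region in Pcdhg is the peak upstream of the pseudogene Pcdhgb8 given above. Between Pcdha and Pcdhb there were 3 (38.8 per Mb), in the 200 kb downstream of the cluster 7 (35 per Mb) and in the 200 kb upstream 2. In the 260 kb of the Pcdhb subcluster neither library had a single distal strict peak.

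The 3 regions between Pcdha and Pcdhb lay side by side, 29.7 to 30.7 kb after the last Pcdha exon and 46.6 to 47.5 kb before Pcdhb1, in introns of the annotated read-through genes Gm37013, Gm37388 and Gm42416. The first, chr18:37217201-37217600, had 2.68 in replicate 1 and 1.43 in replicate 2. The middle one, chr18:37217661-37218120, had 1.39 and 1.24. The third, chr18:37218161-37218480, was the strongest at 5.08 and 2.38, ranks of 82.5% and 97.8% among all 21890 shared distal regions, and held 2 shared footprints.

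A pair of further regions lay in the introns of Pcdha, at starts of long noncoding RNA genes, and so counted as neither member promoter nor distal. At Gm38097, chr18:37172281-37172500 had 2.79 in replicate 1 and 1.52 in replicate 2, with 2 shared footprints, 28.9 kb after the start of Pcdhac2 and 15.3 kb before the end of Pcdha. At Gm10544, chr18:37178381-37178694 had 0.963 and 0.833, with none shared. Enhancers of Pcdha described by others lie in its constant introns and between Pcdha and Pcdhb. Their published positions were not used here.

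Downstream of Pcdhg, 5 regions lay in introns of Diaph1, a formin gene read on the opposite strand. The nearest, chr18:37852141-37852400, lay 10.4 kb after the last Pcdhg exon and was the strongest of the locus, at 10 in replicate 1 and 3.44 in replicate 2, ranks of 97.9% and 99.6%. It held 4 shared footprints. The next 3 formed a group 35.5 to 41.8 kb after that exon. Of these, chr18:37877241-37877580 had 3.13 and 2.00, chr18:37880181-37880480 had 3.95 and 2.65, and chr18:37883521-37883760 had 9.43 and 2.78 with 4 shared footprints. The last ranked at 97.2% and 98.9%. A control region of the cluster, on which Pcdhb expression in particular depends in mice, has been described downstream of Pcdhg; whether these regions belong to it was not tested.

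The other regions named by rank lay farther out. Within an intron of Tmco6, 190 kb upstream of the cluster, chr18:36739881-36740060 had 8.11 and 1.28. At the vault RNA gene Vaultrc5, 128 kb upstream, chr18:36801621-36802000 had 4.24 and 2.39. Downstream, chr18:38013821-38014540 had 2.63 and 1.08, and chr18:38024981-38025220 had 5.75 and 1.38, at 172 kb and 183 kb after the cluster. The remaining 3 regions had signals of 1.05 to 1.76 in replicate 1 and 0.600 to 1.24 in replicate 2, and 1 of them is the region upstream of Pcdhgb8. The 13 regions had a median signal of 3.95 in replicate 1, against 1.98 for all shared distal regions of the genome. In replicate 2 the median was 1.43 for the 13, against 0.855. A shared footprint was present in 12 of the 13 (92.3%), against 81.1% of the 21890 shared distal regions of the genome. The strongest distal regions thus had higher signals than any member promoter in both libraries.

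**Figure D5:**
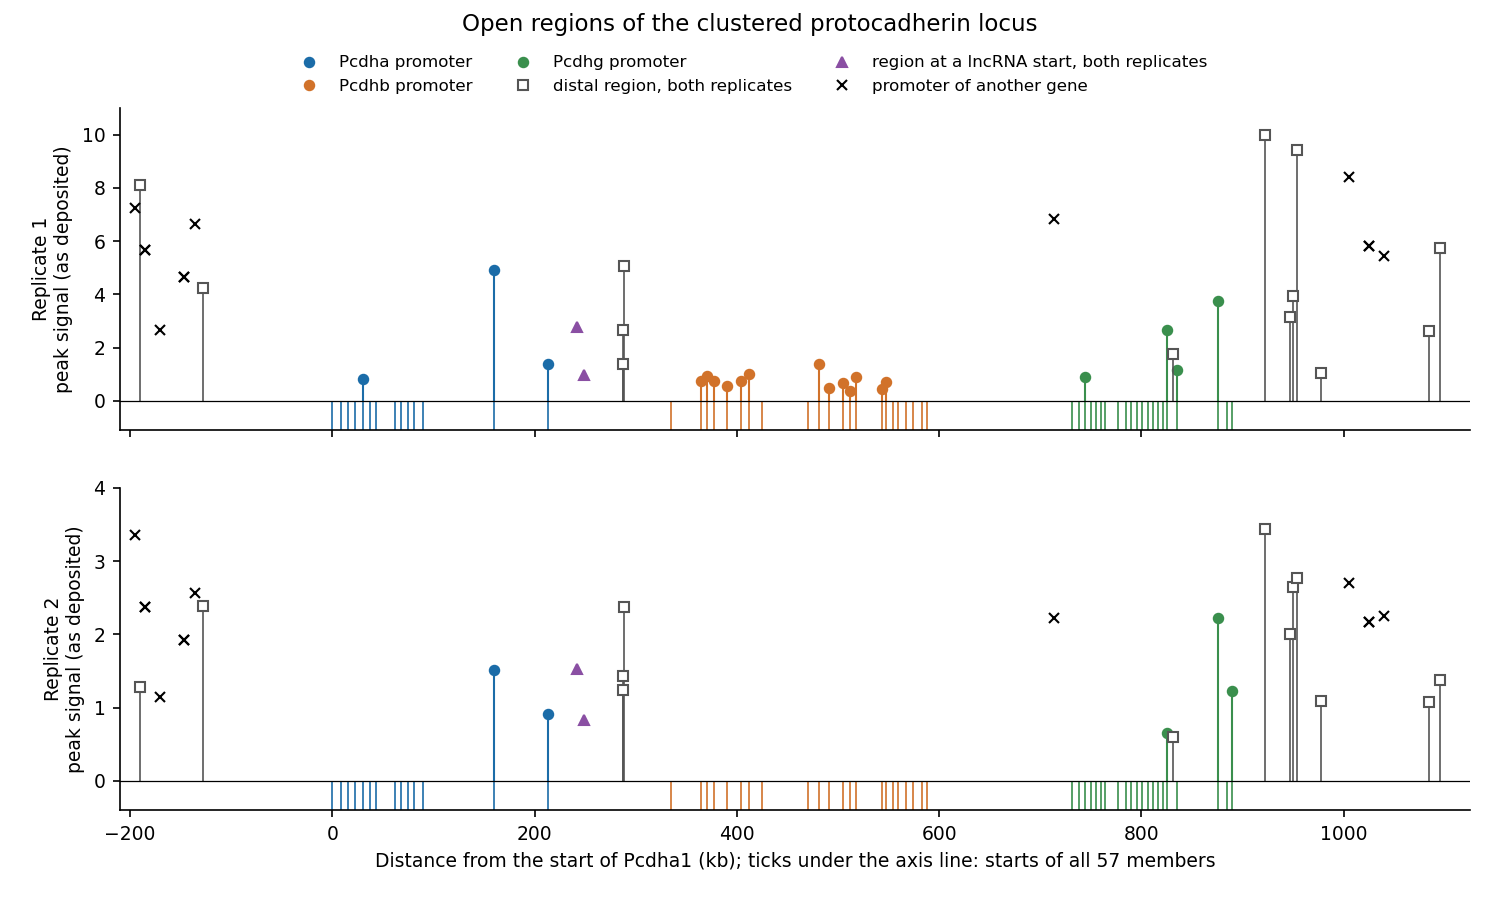
Deposited peak signal in replicate 1 (top) and replicate 2 (bottom) along the locus, in kb from the start of Pcdha1, for strict peaks at member promoters (circles), shared distal regions (squares), shared regions at lncRNA starts (triangles) and promoters of other genes (crosses); ticks under the line mark all 57 member starts. The highest squares, 10 and 3.44, stand downstream of Pcdhg, and the row of low Pcdhb circles is present in replicate 1 only.

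Neighbouring genes of other families were mostly open. Leaving aside the 3 read-through genes, whose promoters had no peak, 12 of 15 other protein-coding genes of the locus were open in both libraries, with signals of 2.67 to 8.41 in replicate 1 and 1.14 to 3.36 in replicate 2. Among the 12, Ndufa2 and Ik, Hars and Hars2, and Hdac3 and Rell2 are neighbouring pairs with equal signals in both libraries. The 12 genes are therefore not 12 separate open regions. Taf7, a subunit gene of the general factor TFIID that lies between Pcdhb and Pcdhg, had 6.85 and 2.23. Its neighbour Slc25a2, a mitochondrial carrier gene, had no peak. Diaph1, which starts beyond Pcdhg, had 8.41 and 2.70. Dnd1 and Arap3 were the other genes without a strict peak.

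Related adhesion genes elsewhere in the genome, on lists chosen with earlier results known, gave shares above that of the members and were not tested against it. Of 12 non-clustered protocadherins, single genes with ordinary promoters, 9 (75%) were open in both libraries. Pcdh10, with 6.05 in replicate 1 and 3.76 in replicate 2, and Pcdh9, with 7.05 and 3.12, ranked highest. Pcdh20 had a peak in replicate 1 only, at 1.72. Pcdh1 and Pcdh12 had none at the outermost annotated start, although Pcdh1 held 2 shared footprints there. Of 25 classical and large cadherins and calsyntenins 17 (68.0%) were open. Clstn3 had 5.49 and 1.92, and Celsr3 had 4.49 and 1.88. Cdh1, Cdh20 and Clstn1 had a peak in replicate 1 only, at 0.765, 0.875 and 1.78. Cdh18, Celsr1, Fat2, Fat4 and Dchs1 had none at the outermost annotated start. Other starts of these adhesion genes were not described.

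Genes whose products act on the cluster or with its proteins were described in the same way. Of 28 regulators 19 (67.9%) were open, among them Ctcf with 3.64 in replicate 1 and 1.61 in replicate 2 and the cohesin subunit genes Rad21, with 4.85 and 2.18, and Smc3, with 10.9 and 3.36. Zfp143, a gene for a factor reported to act with CTCF at looped sites, ranked highest at 17.0 and 5.47. Smchd1, a repressor of the cluster, had 4.18 and 1.86. Rest, Dnmt3a, Dnmt3b and Nsd1 had a peak in replicate 1 only, at 1.18, 2.85, 0.956 and 0.662. Stag1, Dnmt1, Tet1 and Tet3 had none at the outermost annotated start, and other starts of these genes were not described.

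Of 21 partner genes 17 (81.0%) were open. Rac1, a GTPase gene, had 9.44 in replicate 1 and 2.53 in replicate 2, and Wasf1, a gene of the WAVE complex to which protocadherins bind, had 6.03 and 3.34. Ptk2, the kinase gene whose product is inhibited by protocadherins, had 2.79 and 1.19. Ret and Cyfip2 had a peak in replicate 1 only, at 0.779 and 2.21. Ptk2b and Fyn had none at the outermost annotated start, and their other starts were not described. Of 63 zinc finger genes named Zfp900 to Zfp999, another large family of similar copies, 33 (52.4%) were open in both libraries. The share over all protein-coding genes was 48.8%. The list was split, since 27 of the 63 had no peak in either library, and most of these 27 lie on chromosomes 2 and 4.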

How the data were processed

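DNase-seq of 2 libraries was used. The authors deposited, for each library alone per the file headers, 2 peak lists with a signal value per peak, a footprint list and a list of p-values of the cut rate, given as false discovery rates (FDR). The signal was used as deposited. The aligner, the peak caller, the filters and the scaling were not given in the sources used here. Tested in the locus, every strict peak (59 in replicate 1 and 39 in replicate 2) held a base at a deposited p-value (FDR) of 0.001 or less, and every peak of the longer lists (93 and 60) at 0.05 or less. The deposited footprint p-value (FDR) is constant at 0.01.

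Overlaps, motif counts, CpG ratios and 36-base words were computed on GRCm38.p6, the build called mm10, with GENCODE M21, with numpy 2.4.6, numba 0.67.0, pandas 2.3.3 and matplotlib 3.10.9 under Python 3.11.15. Tools were tested on simulated intervals and sequences. Positions count from 1.

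The members and lists were chosen with earlier results of these data known. Values are given for every C-type gene, every member with a strict peak in exactly 1 library, the 5 members of each subcluster with the highest mean rank, other genes within 50 kb, the 10 distal regions with the highest mean rank, and list genes open in at most 1 library or among the 2 highest. Zinc finger genes are given as counts, and a value that belongs to the list of regulators is not reported here.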

Additional observations from a re-analysis of the deposited data

How the results depend on the processing

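The number of members open in both libraries was 4 as reported, 13 with the longer peak lists and 2 with the stronger 50% of each strict list. By subcluster, the longer lists gave 5 Pcdhb genes against 0 as reported and 6 Pcdhg genes against 2, and the stronger 50% gave 1 Pcdha gene and 1 Pcdhg gene. Over all protein-coding genes the share was 48.8% as reported, 54.1% with the longer lists, 53.3% with 2000 bp either side of the start, 54.2% with any annotated start and 42.3% with the stronger 50%. Windows of 2000 and 250 bp and other choices of the start left the member count at 4. The count of shared distal regions was 13 as reported, 19 with the longer lists, 10 with the window of 2000 bp and 10 with the stronger 50%. The density of 9.91 per Mb belongs to the count of 13 only. With the cluster alone, 4 of the 13 shared distal regions remained.

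Counts were higher from replicate 1 alone than from replicate 2 alone. Leaving out either library gave 5 to 20 members with a peak, 2 to 3 Pcdha, 0 to 13 Pcdhb and 3 to 4 Pcdhg genes, 49.4% to 54.8% of all genes, 19 to 20 distal regions and 6 to 36 members with a footprint; the cause was not tested. The count of flanking genes stayed between 12 and 13 over all its alternatives. The 25 promoter signals of named members with a strict peak recurred with the same values on the longer lists. Signals found only on the longer lists, such as those of Pcdhgc4, were not among the 25. No paired analysis was possible because both libraries belong to 1 group. Unknown depth limits every statement that a peak is missing.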
